A study of Mus musculus with 12 samples.

Results

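The expression of 10 genes of oxidative stress defence and iron handling was followed in whole 4T1 tumours from mice treated with endothelial extracellular vesicles (EVs). The genes were Hmox1, Nqo1, Gclc, Gclm, Srxn1, Txnrd1, Slc7a11, Fth1, Ftl1 and Slc40a1. They were chosen by name, with earlier results of these data known. All 10 were found among the 35944 genes of the tables and among the 15459 genes with enough reads to be tested. A gene's level was the sum over its annotated transcripts.

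RNA-Seq was performed on 12 tumours of 4T1, a mouse mammary carcinoma line that grows in immunocompetent BALB/c mice. Female BALB/c mice aged 6 to 8 weeks received 100000 4T1 cells under the skin of 1 flank, and treatment started 5 days later. All mice, controls included, then had EVs injected beside the tumour, 3 µg each time at intervals of 2 days, until tumours were collected on day 21. The EVs came from MS-1, a mouse endothelial cell line, and had been electroporated with a double-stranded mimic of 1 miRNA. The mimic was cel-miR-67 (ctrl), a nematode miRNA with no mouse counterpart, or else miR-142-5p or miR-183-5p or miR-222-3p, with 3 tumours in each group. Values listed together for the 3 miRNA groups follow this order. Each library came from 1 tumour, and no group without EVs was analysed here. The RNA of a whole tumour mixes cancer, immune and stromal cells, so more cells of a type and more RNA per cell cannot be told apart in any value below.

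These genes form 2 linked systems. The transcription factor NRF2 (Nfe2l2) is kept low by KEAP1, escapes it when electrophiles or peroxides modify KEAP1, and then binds antioxidant response elements in genes of glutathione synthesis, thioredoxin reduction, quinone reduction, haem breakdown and ferritin. Ferritin stores iron in a form that cannot drive radical chemistry, ferroportin releases iron from cells, and both are also controlled at the level of translation by iron regulatory proteins that bind a stem-loop in the messenger RNA. Tumours rely on these systems to withstand peroxides, and macrophages rely on them to recycle iron from haem.

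The mature miRNAs that the mimics stand for are printed from RefSeq (GRCm38.p6), because the seed, bases 2 to 8 in capitals, sets which messenger RNAs a miRNA pairs with. The loci are chr11:87756867-87756887 on the plus strand for miR-142a-5p, chr6:30169711-30169732 on the minus strand for miR-183-5p and chrX:19146901-19146923 on the minus strand for miR-222-3p. The 3 seeds differ.
mmu-miR-142a-5p: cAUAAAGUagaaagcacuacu
mmu-miR-183-5p: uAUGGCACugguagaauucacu
mmu-miR-222-3p: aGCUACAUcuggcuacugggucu

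The 3′ untranslated regions (3′ UTRs) of the 10 genes were searched for the letters complementary to these seeds, in the transcript with the longest 3′ UTR in GENCODE M21 on GRCm38. ACTTTAT, the complement of the miR-142a-5p seed, was found in 1 of 10 genes, against 16.0% of the 14651 tested genes with a 3′ UTR. GTGCCAT, for miR-183-5p, was found in 2 of 10 genes against 10.4%, and ATGTAGC, for miR-222-3p, in 1 of 10 against 10.9%. The matches are shown with 10 bases on each side, read on the strand of the gene, so that they can be set beside the values of the 3 genes further on. Capitals mark the match. In Slc7a11 it lay within chr3:50368158-50368184 on the minus strand, and in Hmox1 within chr8:75100344-75100370 on the plus strand. In Gclm the miR-183-5p match lay within chr3:122268940-122268966 and the miR-222-3p match, the only one of the 4 that extends to 8 letters, within chr3:122267351-122267377, both on the plus strand. Each match lay within 1 exon, at bases 4128 to 4134 of 7364 of the Slc7a11 3′ UTR, 335 to 341 of 570 in Hmox1, and 2553 to 2559 and 964 to 971 of 4335 in Gclm.
Slc7a11, miR-142a-5p: gactcaagaaACTTTATtttatttgaa
Hmox1, miR-183-5p: ctgtcccccaGTGCCATggccactttg
Gclm, miR-183-5p: attaaaggcgGTGCCATcacaccctac
Gclm, miR-222-3p: tggtccttacATGTAGCAttgaaaggt

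The 5′ UTRs were searched for the letters of an iron-responsive element, a C followed by 5 bases, then CAGTGN, then 5 bases that pair with the 5 before the loop. Of the 14651 genes, 19 held such letters in the 5′ UTR (0.130%), and 3 of these were Fth1, Ftl1 and Slc40a1. They are shown because they mark the 3 iron genes whose protein output is not set by the messenger RNA level alone, which is all that was measured here. Capitals mark the loop. The windows were chr19:9982732-9982760 on the plus strand, chr7:45459779-45459807 on the minus strand and chr1:45925465-45925493 on the minus strand of GRCm38.
Fth1: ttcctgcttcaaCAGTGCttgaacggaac
Ftl1: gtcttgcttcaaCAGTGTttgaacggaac
Slc40a1: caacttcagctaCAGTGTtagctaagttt

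RefSeq promoter windows from 250 bases before to 50 bases after the gene start were found for 7 of the 10 genes, 10 windows in all. The core letters of an antioxidant response element, TGACNNNGC on either strand, were present in 3 of these 10 windows, those of Srxn1 and Gclm and 1 of Txnrd1, against 12.4% of 32851 windows of all genes.

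The libraries held 20285968 to 27021401 estimated reads, and mitochondrial transcripts took 2.28% to 4.09% of them. In 1 library, miR-183-5p tumour 3, 4 skeletal muscle genes summed to 303 TPM (reads per transcript length, scaled to the same sum in every library) against 13.6 to 25.7 TPM in the other 11 libraries. The share of reads that Gm28661 took from itself and its near-identical mitochondrial copy mt-Co2 was 7.13% to 41.8% in 8 libraries and 0.000621% to 0.324% in the other 4, namely miR-183-5p tumour 3 and the whole miR-222-3p group (3 tumours). This feature and the miR-222-3p group cannot be told apart. Epithelial tumour cell markers (Epcam, Krt8, Krt18, Krt19, Cldn4 and Cldn7) summed to 1439 to 2219 TPM in the 12 tumours, and the hepatocyte markers Alb, Apoa1 and Ttr were under 1 TPM in all of them.

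Ferritin dominated the 10 genes. Fth1, the heavy chain of ferritin that oxidises iron for storage, had a mean of 3841 TPM over the 12 tumours (range 2882 to 4490) and ranked 18 of 35944 genes. Ftl1, the light chain that helps the iron core to form, had a mean of 3532 TPM (2963 to 4484) and ranked 21. The ranges of the 2 chains overlapped, and together they took 0.601% to 0.897% of all TPM of a tumour, out of 0.626% to 0.928% for the 10 genes.

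The other 8 genes lay far lower. Hmox1, which encodes the inducible haem oxygenase that splits haem into biliverdin, carbon monoxide and iron, had a mean of 105 TPM (54.4 to 146), and Txnrd1, the cytosolic thioredoxin reductase, had 72.3 TPM (62.4 to 85.0). Gclm, the regulatory subunit of the enzyme that starts glutathione synthesis, had 32.9 TPM (24.3 to 42.7), and Srxn1, the sulfiredoxin that repairs overoxidised peroxiredoxins, had 25.2 TPM (22.1 to 30.8). Gclc, the catalytic partner of Gclm, had 10.4 TPM (7.79 to 12.6). Lowest were Slc40a1, which encodes ferroportin, with 7.41 TPM (3.37 to 13.6), Slc7a11, the cystine importer that feeds glutathione synthesis, with 6.76 TPM (3.56 to 10.3), and Nqo1, a quinone reductase, with 5.94 TPM (4.94 to 7.59). The ranges of Hmox1 and Txnrd1 overlapped, as did those of Gclm and Srxn1, so these neighbours were not ordered beyond their spread. Among the 4 lowest genes each neighbour in the order overlapped the next, while the ranges of Gclc and Nqo1 did not overlap.

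**Figure D1:**
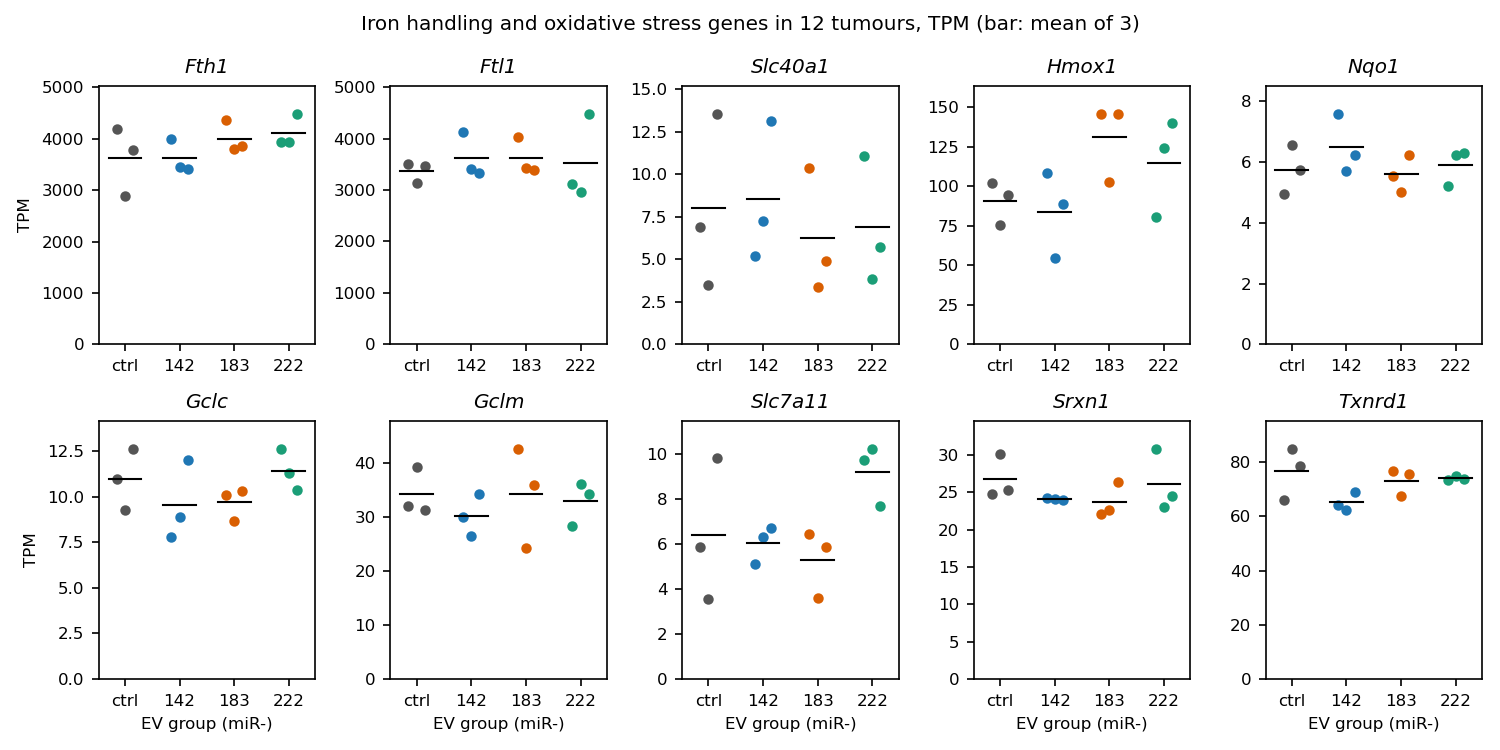
Level of the 10 genes in TPM (vertical axis, from 0, a separate scale for each gene) in the 4 EV groups (horizontal axis, ctrl first). Each point is 1 tumour and each bar the mean of 3. Slc40a1 and Slc7a11 are spread widely inside groups, from 3.37 to 13.6 TPM and from 3.56 to 10.3 TPM over the 12 tumours, while Txnrd1 stays between 62.4 and 85.0 TPM.

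To ask whether a miRNA loaded into EVs changed these genes, each group was compared with ctrl in 1 DESeq2 model over the 12 tumours, with p-values adjusted by the Benjamini-Hochberg method over all genes. None of the 10 genes passed an adjusted p-value of 0.05 in any comparison with ctrl, nor did any with edgeR. Among all genes, 0.00649% were called in miR-142-5p tumours, 0.0% in miR-183-5p tumours and 0.026% in miR-222-3p tumours, so calls were rare everywhere. At an unadjusted p-value under 0.05, DESeq2 gave 1, 0 and 0 of the 10 genes in the 3 miRNA groups, where 3.56%, 3.22% and 2.29% of all genes reached that level.

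Direction was mixed. Against ctrl, 4 of 10 genes had a higher estimate and 6 a lower one in miR-142-5p tumours, with a median log2 fold change of -0.09 where the median of all genes was -0.01. The split was 4 higher and 6 lower for miR-183-5p (median -0.03, all genes -0.01) and 6 higher and 4 lower for miR-222-3p (median 0.05, all genes -0.01). The 3 comparisons share the ctrl tumours.

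**Figure D2:**
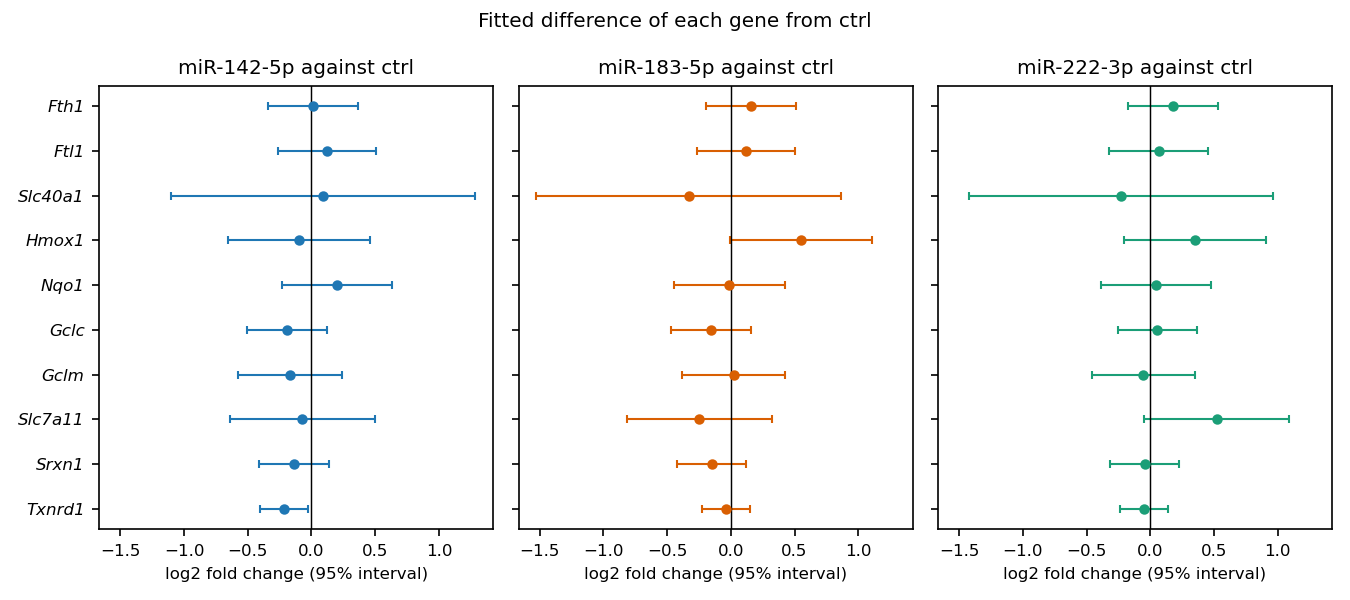
Log2 fold change of each of the 10 genes against ctrl (horizontal axis) with its 95% interval, from the DESeq2 model of 12 tumours, in 1 panel for each miRNA group. Estimates run from -0.33 (Slc40a1, miR-183-5p) to 0.55 (Hmox1, miR-183-5p), and 29 of the 30 intervals include 0, the exception being Txnrd1 in miR-142-5p tumours.

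Hmox1 had the largest estimate against ctrl of the 10 genes. Its normalised counts (reads scaled for library size and transcript length) were 2469, 1647 and 1979 in the ctrl group (tumours 1 to 3, as in all such lists) but 3243, 2366 and 3303 with miR-183-5p. They were 2596, 1232 and 1860.4 in miR-142-5p tumours and 1684, 2782 and 3291 in miR-222-3p tumours. All but 1 of the miR-183-5p tumours lay above every ctrl tumour, and tumour 2 of that group fell just under ctrl tumour 1. On the TPM scale that tumour, at 102.4, lay just above ctrl tumour 1, at 101.8, so the overlap depended on the scale. The share of all genes without overlap in TPM is not given here. The miR-142-5p group reached both below and above the ctrl range. In the miR-222-3p group tumour 1 lay within the ctrl range and tumours 2 and 3 lay above it.

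For miR-183-5p against ctrl the log2 fold change of Hmox1 was 0.55 (SE 0.28, 95% interval -0.01 to 1.11, DESeq2 adjusted p = 1.0). Without miR-183-5p tumour 3, the library with muscle transcripts, it was 0.46. It was 0.35 (SE 0.28) for miR-222-3p and -0.10 (SE 0.28) for miR-142-5p. By group means the order was miR-142-5p, ctrl, miR-222-3p and miR-183-5p, and neighbouring groups overlapped.

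Between the miRNA groups, Hmox1 was 1.57 times as high in miR-183-5p as in miR-142-5p tumours (log2 fold change 0.65, SE 0.28, DESeq2 adjusted p = 0.502). These groups overlapped, because miR-142-5p tumour 1, at 2596, exceeded miR-183-5p tumour 2, at 2366. Whether Hmox1 passed the threshold depended on that single tumour. Without miR-142-5p tumour 1 the log2 fold change was 0.94 and the adjusted p-value of DESeq2 was 0.039. The share of all genes called in that fit is not given here, so the call cannot be read as particular to Hmox1. Over the other alternatives the adjusted p-value of Hmox1 lay between 0.255 and 1.0. With all tumours kept, 0 of the 10 genes were called in this comparison against 0.0519% of all genes. In the same fit 1 of the 10 had an unadjusted p-value under 0.05 against 7.95% of all genes. Hmox1 and Gclm are the 2 genes whose 3′ UTRs hold the miR-183-5p match shown above. In miR-183-5p tumours the Hmox1 estimates were above 0 against all 3 other groups, and the Gclm estimate against ctrl was 0.02 (SE 0.21). Whether the miRNA acts on either match was not tested, and values of whole tumours cannot show it.

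Markers of other cell types were read in the same tumours. Fibroblast markers (Col1a1, Col1a2, Col3a1, Pdgfra, Pdgfrb, Dcn and Lum) summed to 932 to 1127 TPM in miR-183-5p tumours, 407 to 924 TPM in ctrl tumours, 296 to 784 TPM in miR-142-5p tumours and 389.6 to 1398 TPM in miR-222-3p tumours. Of these 7 markers, 6 had a higher estimate in miR-183-5p than in ctrl tumours, and 0 were called by DESeq2 (1 at an unadjusted p-value under 0.05). Of the 8 macrophage markers 1 had a higher estimate in that comparison, with 0 called (2 unadjusted), and their sums were 1147 to 1733 TPM in miR-183-5p tumours and 1740.0 to 2200.0 TPM in ctrl tumours. All 7 neutrophil markers had a higher estimate, with 0 called (2 unadjusted), and summed to 1884 to 3048 TPM against 1053 to 2017 TPM in ctrl. The 5 tested erythroid markers, whose cells are rich in haem, also all had a higher estimate, with 0 called (0 unadjusted), and the erythroid list summed to 435 to 761 TPM against 361 to 451 TPM. Within each miRNA group the tumours stood in the same order by fibroblast sum and by Hmox1 count. The ctrl group did not keep that order, as in ctrl tumour 2 the fibroblast sum was the highest of the group and Hmox1 the lowest. No fibroblast or macrophage marker was under 1 TPM in every tumour. The part of these cell types in the Hmox1 values was not tested.

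Of 11541 genes with a mean normalised count of at least 100, the 3 whose values over the 12 tumours were most like those of Hmox1 were Ccn1, a matricellular protein (Pearson r = 0.95), Ccn4, of the same family (r = 0.93), and Cpxm2 (r = 0.93). These coefficients describe the same 12 libraries from which the genes were picked.

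For Slc7a11 the miR-222-3p group did not overlap the other miRNA groups, and neither difference passed the adjusted threshold. Such a lack of overlap was found for 9.06% of all genes against miR-183-5p and for 6.2% against miR-142-5p. Its normalised counts were 1318, 1482 and 1165 in miR-222-3p tumours, 923, 500.4 and 1336 in ctrl tumours, 793, 923 and 910.1 in miR-142-5p tumours and 924, 541 and 859 in miR-183-5p tumours. Every miR-222-3p tumour lay above every miR-142-5p and miR-183-5p tumour. The ctrl group, in contrast, held both the lowest value of all 12 tumours and the second highest.

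Against ctrl, Slc7a11 had a log2 fold change of 0.52 in miR-222-3p tumours (SE 0.29, 95% interval -0.05 to 1.09, DESeq2 adjusted p = 1.0), of -0.07 in miR-142-5p tumours and of -0.25 in miR-183-5p tumours (both SE 0.29). The miR-222-3p value was 0.90 without ctrl tumour 3 and 0.23 without ctrl tumour 2. Slc7a11 was 0.586 times as high in miR-183-5p as in miR-222-3p tumours (log2 fold change -0.77, SE 0.29, 95% interval -1.34 to -0.20, DESeq2 adjusted p = 1.0). In miR-142-5p tumours it was 0.662 times the miR-222-3p level (log2 fold change -0.59, SE 0.29, DESeq2 adjusted p = 1.0).

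Slc7a11 was also the only 1 of the 10 genes to reach an unadjusted p-value under 0.05 by the likelihood ratio test over the 4 groups (DESeq2 adjusted p = 1.0), where 4.74% of all genes reached it and 0.0584% were called. In the comparisons of miR-183-5p and of miR-142-5p with miR-222-3p, 0 of the 10 genes were called by DESeq2 or edgeR, against 0.0324% and 0.0389% of all genes, and 1 in each had an unadjusted p-value under 0.05, against 3.24% and 3.59%. The groups did not overlap for 2 of the 10 genes in the first (Gclc and Slc7a11, against 9.06% of all genes) and for 1 in the second (Slc7a11, against 6.2%). The miR-222-3p libraries are also those with the low Gm28661 share, and the feature and the group cannot be told apart. The only other library with that feature, miR-183-5p tumour 3, also held muscle transcripts and had a Slc7a11 count of 859. The Slc7a11 3′ UTR holds the miR-142a-5p match, and the Slc7a11 value in miR-142-5p tumours stood at -0.07 against ctrl, as given above. Whether the miRNA acts on this match was not tested.

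Transcripts most like Slc7a11 across tumours were Taf2, a general transcription factor subunit (r = 0.87), Zfp810 (r = 0.85) and Mfap3l (r = 0.84). As for Hmox1, these coefficients describe the same libraries from which the genes were picked. Gclc, which uses the cysteine made from imported cystine, had r = 0.73 with Slc7a11 across the tumours. That pair did not pass the permutation test given below (adjusted p = 0.112).

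The enzymes of the glutathione and thioredoxin systems varied less than Hmox1 and Slc7a11, with coefficients of variation over the 12 tumours of 7.85% (Txnrd1) to 15.9% (Gclm). Txnrd1, which recycles thioredoxin with NADPH, had normalised counts of 3672, 4248 and 3788 in ctrl tumours and 3531, 3238 and 3315 in miR-142-5p tumours. In miR-183-5p tumours they were 3901, 3572 and 3920 and in miR-222-3p tumours 3515, 3845 and 3975. Every miR-142-5p tumour lay under every ctrl tumour, and also under every miR-183-5p tumour. On the TPM scale the miR-142-5p and ctrl groups overlapped.

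The log2 fold change of Txnrd1 in miR-142-5p tumours was -0.22 (SE 0.10, 95% interval -0.41 to -0.03, DESeq2 adjusted p = 1.0). It was -0.15 without ctrl tumour 2, the highest of the 12. In normalised counts Txnrd1 was the only 1 of the 10 genes whose groups did not overlap in this comparison, where 6.07% of all genes did not. On the same scale none of the 10 was without overlap with ctrl in miR-183-5p and miR-222-3p tumours, against 9.17% and 5.5%. Between the miR-183-5p and the miR-142-5p tumours Txnrd1 was again the 1 gene of 10 without overlap, against 12.3%. Over the 12 tumours its coefficient of variation was 7.85%, and 9.28% of the tested genes had a lower one. In the remaining groups, miR-183-5p first, the log2 fold changes were -0.04 and -0.05 (both SE 0.10).

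Gclc and Gclm, the subunits of glutamate-cysteine ligase, had group means of 508 to 604 and of 595 to 679 normalised counts. The Gclc estimates against ctrl were -0.19, -0.16 and 0.05 in the 3 miRNA groups (each SE 0.16), and the Gclm estimates were -0.17, 0.02 and -0.05 (each SE 0.21). All 95% intervals included 0. Gclm was highest in miR-183-5p tumour 1 (832) and lowest in miR-183-5p tumour 2 (493), so 1 group spanned the range of all 12 tumours. The ratio of Gclm to Gclc in TPM was 3.21 ± 0.90 in ctrl and 3.23 ± 0.54, 3.51 ± 0.72 and 2.92 ± 0.59 in the 3 miRNA groups (mean ± SD, n = 3, two-sided exact permutation p = 0.9, 0.7 and 0.8 against ctrl). With 3 against 3 tumours this exact permutation test cannot give a p-value below 0.1.

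The TPM of Gclm was divided over several transcripts. Gclm-201, the form whose long 3′ UTR holds both seed matches, took a mean of 10.2% of the gene's TPM (8.00% to 12.6%), and the short form Gclm-206 took 39.3%. TPM divides by transcript length, and in estimated reads Gclm-201 was the larger. It held 206 to 427 reads in a library, against 108 to 282 for Gclm-206. For Hmox1, Nqo1, Gclc, Slc7a11, Fth1, Ftl1 and Slc40a1 1 protein-coding transcript took at least 93.4% of the gene's TPM on average.

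Srxn1 had 1042, 1143 and 923 normalised counts in ctrl tumours and group means of 934 to 1007 in the miRNA groups. Its log2 fold changes were -0.14, -0.15 and -0.04 in the 3 miRNA groups (each SE 0.14). In TPM the miR-142-5p tumours (23.9 to 24.2) all lay under the ctrl tumours (24.7 to 30.1), while in normalised counts these groups overlapped. Nqo1 had group means of 127 to 148 normalised counts and log2 fold changes of 0.20, -0.01 and 0.05 (each SE 0.22), resting on 104 to 170 reads in a library. Nqo1 was highest in miR-142-5p tumour 1, with 182.8 normalised counts, and the other 11 tumours lay between 109.5 and 148.

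No ferritin message passed the test in any comparison. Fth1 had 55086, 33995 and 42883 normalised counts in ctrl tumours, 51920.0, 42212 and 38704 in miR-142-5p tumours, 52386, 47417 and 47264 in miR-183-5p tumours and 44580.0, 47680.0 and 57022 in miR-222-3p tumours. The ctrl group alone covered most of the range, from the lowest tumour of all, ctrl tumour 2, to the second highest, ctrl tumour 1. Ftl1 had 47768, 38330.0 and 40899 in ctrl tumours and group means of 44354 to 46062 in the others, with the highest value, 59126, in miR-222-3p tumour 3.

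The log2 fold changes of Fth1 were 0.01, 0.16 and 0.18 in the 3 miRNA groups (each SE 0.18), and those of Ftl1 were 0.12, 0.12 and 0.07 (each SE 0.20). The highest upper 95% bound was 0.53 for Fth1 and 0.51 for Ftl1, so larger rises lay outside the intervals. The ratio of heavy to light chain in TPM was 1.07 ± 0.14 in ctrl and 1.002 ± 0.03, 1.11 ± 0.03 and 1.198 ± 0.17 in the 3 miRNA groups (mean ± SD, n = 3, two-sided exact permutation p = 0.5, 0.8 and 0.4 against ctrl). Over the 6 ratio comparisons every adjusted p-value of this exact permutation test was 0.9. Of the 10 genes only Ftl1 had near-identical copies among the listed transcripts, 5 genes that held reads equal to 0.0604% of its own.

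Slc40a1 varied most. Its normalised counts were 378, 171 and 642 in ctrl tumours and 279.6, 370.3 and 619.9 in miR-142-5p tumours. They were 519, 175 and 251 in miR-183-5p tumours and 522, 194 and 300.7 in miR-222-3p tumours. All groups overlapped, and the 4 lowest tumours came from the ctrl, miR-183-5p and miR-222-3p groups.

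The coefficient of variation of Slc40a1 over the 12 tumours was 46.1%, above that of 88.4% of the tested genes, where the median gene had 16.0%. Its log2 fold changes were 0.09, -0.33 and -0.23 in the 3 miRNA groups (each SE 0.61), with 95% intervals of -1.10 to 1.29, -1.53 to 0.86 and -1.42 to 0.97, the widest of the 10 genes. Markers of iron-recycling macrophages, which export iron through ferroportin, summed to 82.7 to 158 TPM in ctrl tumours and to 99.1 to 125, 68.6 to 119 and 53.8 to 141 TPM in the 3 miRNA groups. Of the 5 markers, Vsig4 and Cd5l were under 1 TPM in every tumour. Spic lay between 0.211 and 3.72 TPM and Cd163 between 0.364 and 5.13 TPM. Vcam1, at 53.0 to 155 TPM, made up nearly all of each sum, so the sums describe this gene more than the list. The part of these cells in the Slc40a1 values was not tested. The genes most like Slc40a1 over the tumours were Ccl9, a chemokine of myeloid cells (r = 0.94), Rad52, a DNA repair factor (r = 0.91), and Erg, an endothelial transcription factor (r = 0.90). They, too, were picked from the same libraries that the coefficients describe.

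The 10 genes did not rise and fall as 1 block. In ctrl tumour 2, Fth1, Ftl1, Hmox1, Slc7a11, Slc40a1 and Gclc were under their own 12-tumour means while Txnrd1, Srxn1, Gclm and Nqo1 were above them. The most even tumours were miR-222-3p tumour 3, with 9 of 10 genes above their means, and miR-142-5p tumour 2, with 9 of 10 below.

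**Figure D3:**
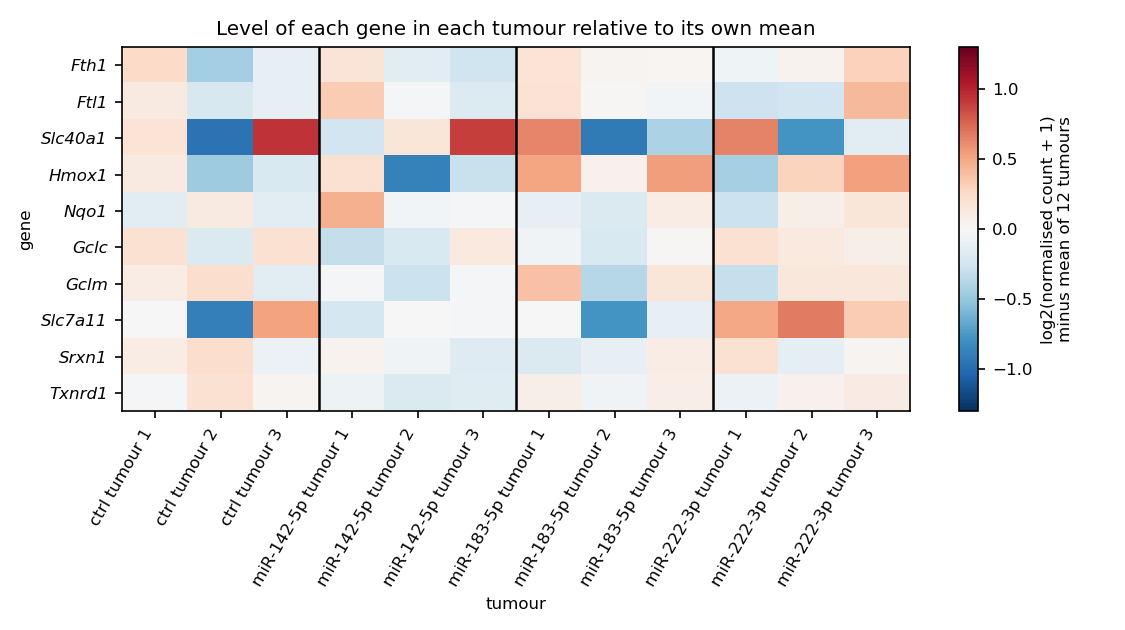
Heat map of the 10 genes (rows) in the 12 tumours (columns, groups divided by lines), where colour gives log2(normalised count + 1) minus the mean of the gene over the 12 tumours (red above, blue below). The strongest colours belong to Slc40a1, Slc7a11 and Hmox1 and fall in single tumours of every group, such as ctrl tumour 2, where Slc40a1 is at -0.96 and Slc7a11 at -0.89.

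Pairs of the 10 genes were then compared over the 12 tumours, on log2(normalised count + 1), with permutation tests of 100000 resamples and Benjamini-Hochberg adjustment over the 45 pairs. No pair passed by Pearson's r or by Spearman's rho, and 5 pairs had an unadjusted permutation p-value of r under 0.05. The closest pair was the 2 ferritin chains, Fth1 and Ftl1 (r = 0.75, permutation p = 0.0049, adjusted p = 0.112, rho = 0.70, permutation p = 0.0141, adjusted p = 0.212). Without the 2 tumours farthest from the median of Fth1 r was 0.77, and within the 8 libraries with the higher Gm28661 share it was 0.87. On log2(TPM + 1) it was lower, at 0.60. With group means subtracted r was 0.82, with an adjusted permutation p-value of 0.0174 from all 1296 orders within groups. The smallest p-value that 1296 orders can give before adjustment is 0.000772. Nqo1 and Txnrd1 had the same adjusted permutation p-value there (r = 0.86), but r = 0.20 without the subtraction.

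Hmox1 and Fth1, which lie next to each other in haem iron release and storage, had r = 0.73 (permutation p = 0.00706, adjusted p = 0.112, rho = 0.76, permutation p = 0.00614, adjusted p = 0.138), 0.71 without the 2 farthest tumours and 0.74 within the 8 libraries. Gclc and Slc7a11 had r = 0.73 (permutation p = 0.00745, adjusted p = 0.112, rho = 0.65, permutation p = 0.0262, adjusted p = 0.295), 0.70 without 2 tumours and 0.65 within the 8 libraries. Gclm and Txnrd1 had r = 0.70 (permutation p = 0.0122, adjusted p = 0.137, rho = 0.78, permutation p = 0.00411, adjusted p = 0.138), 0.76 without 2 tumours and 0.64 within the 8 libraries. Hmox1 and Gclm had r = 0.59 (permutation p = 0.0453, adjusted p = 0.408, rho = 0.53, permutation p = 0.0797, adjusted p = 0.423), 0.75 without 2 tumours and 0.44 within the 8 libraries. Gclm and Gclc, the subunits of 1 enzyme, had r = 0.08 (permutation p = 0.801, adjusted p = 0.949). The other 4 libraries were too few for a value of their own.

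**Figure D4:**
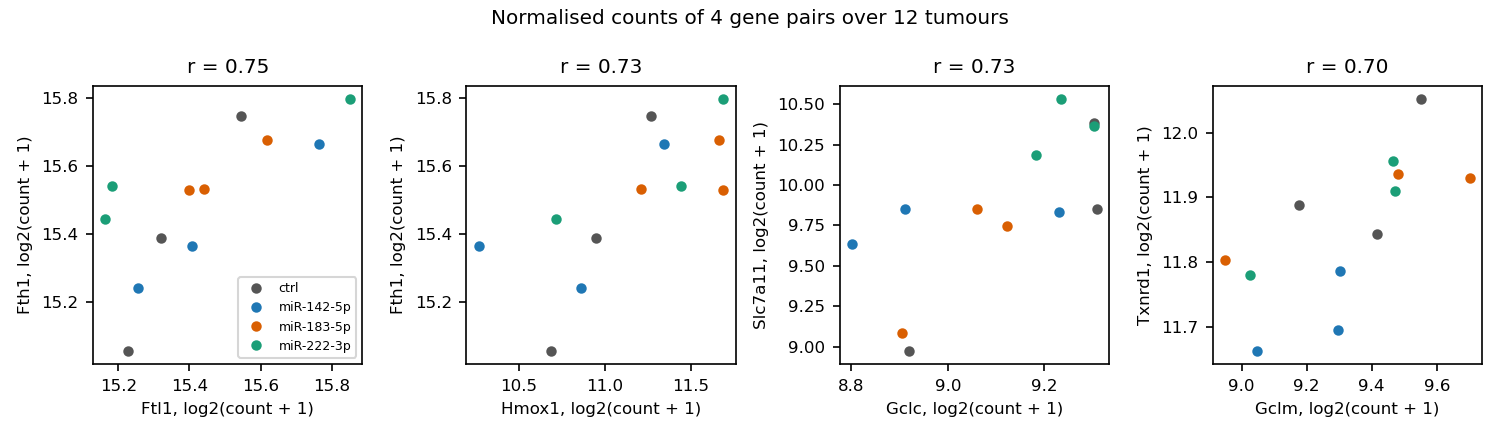
Scatter plots of 4 gene pairs over the 12 tumours, log2(normalised count + 1) on both axes, 1 point per tumour coloured by group, with axes that do not start at 0. Pearson's r is 0.75 for Ftl1 and Fth1, 0.73 for Hmox1 and Fth1, 0.73 for Gclc and Slc7a11 and 0.70 for Gclm and Txnrd1, and tumours of every group lie along each trend.

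To place the 10 genes in their pathways, 93 related genes in 7 lists were read from the same fit, of which 90 had enough reads. These lists, too, were chosen with earlier results of these data known. None of the 90 genes was called against ctrl for any of the 3 miRNAs by DESeq2 or edgeR. At an unadjusted p-value under 0.05 the counts were 9 of 90 for miR-142-5p (against 3.56% of all genes), 2 of 90 with miR-183-5p (against 3.22%) and 2 of 90 in miR-222-3p tumours (against 2.29%).

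The regulators of NRF2 (10 genes, Keap1 and the competing repressor Bach1 among them) did not pass in any comparison with ctrl, also at an unadjusted p-value under 0.05. Their median log2 fold changes were -0.03, 0.04 and 0.0008 in the 3 miRNA groups. Keap1 had estimates of -0.13, -0.09 and -0.18 (each SE 0.11), with no overlap with ctrl in the last group, and Bach1 of -0.06, -0.12 and -0.09 (each SE 0.17). The small Maf partner gene Maff had -0.29, 0.09 and -0.00 (each SE 0.23), and Sqstm1, the autophagy receptor that binds KEAP1, had 0.13, 0.13 and 0.15 (each SE 0.17).

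Among 26 tested glutathione and thioredoxin enzymes, 2 were lower at an unadjusted p-value under 0.05 in miR-142-5p tumours and 1 was higher in miR-183-5p tumours. The former included Chac1, which degrades glutathione (log2 fold change -0.73, SE 0.37, DESeq2 adjusted p = 1.0). The latter was Gpx3, the secreted glutathione peroxidase, with 647, 758 and 489.7 normalised counts in ctrl tumours and 929, 1076 and 1205 in miR-183-5p tumours (log2 fold change 0.76, SE 0.29, DESeq2 adjusted p = 1.0). Every miR-183-5p tumour lay above every ctrl tumour for Gpx3, and miR-222-3p tumour 3, at 1443, exceeded them all. In a fit of only these 2 groups Gpx3 passed the adjusted threshold, and the share of all genes called there is not given here.

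The 6 NADPH-supplying enzymes had 0 higher and 6 lower estimates in miR-142-5p tumours, none of them passing at an unadjusted p-value under 0.05, with a median log2 fold change of -0.10. Pgd had -0.19 (SE 0.14) and Me1 -0.15 (SE 0.24) there. In the remaining groups, miR-183-5p first, the medians of this list were -0.02 and -0.07.

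Cat, the catalase that breaks down hydrogen peroxide, had an unadjusted p-value under 0.05 in all 3 comparisons with ctrl, which share the ctrl tumours. Its normalised counts were 1289, 1406 and 1204 in ctrl tumours and 1664, 1710.2 and 1822 in miR-142-5p tumours, 1594, 1457 and 1646 in miR-183-5p tumours and 1359, 1652 and 1565 in miR-222-3p tumours. The miR-142-5p and miR-183-5p tumours all lay above the ctrl tumours, and miR-222-3p tumour 1 lay within the ctrl range. The log2 fold changes were 0.41 (SE 0.11, DESeq2 adjusted p = 0.451), 0.27 and 0.23, and none passed the adjusted threshold. In the same list of 9 superoxide and peroxide enzymes, Ncf1, a subunit of the phagocyte oxidase, had 0.21 in miR-142-5p tumours (SE 0.09) and -0.135 in miR-183-5p tumours (SE 0.09). Cybb, the catalytic subunit of that oxidase, had 0.06 and -0.39 (both SE 0.24).

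Of 8 other NRF2 targets only Ephx1, the microsomal epoxide hydrolase, had an unadjusted p-value under 0.05 against ctrl. It had 99.1, 71.4 and 97.1 normalised counts in ctrl tumours and 119, 138 and 286 in miR-142-5p tumours (log2 fold change 1.02, SE 0.36, DESeq2 adjusted p = 0.815). The groups did not overlap, and miR-142-5p tumour 3 stood well above the other 2. Osgin1, Abcc1, Ugdh and Blvrb had estimates between -0.25 and 0.05 in the same comparison.

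In iron import and regulation, 3 of 19 tested genes were lower at an unadjusted p-value under 0.05 in miR-142-5p tumours and 0 in the other groups. They included the metalloreductases Steap2, with 3097, 3548 and 3105 normalised counts in ctrl and 2799.6, 2169 and 2274 in miR-142-5p tumours, and Steap1. Every miR-142-5p tumour lay under every ctrl tumour for Steap2 (log2 fold change -0.43, SE 0.12, DESeq2 adjusted p = 0.463), and the Steap1 estimate was -0.60 (SE 0.30). Without miR-142-5p tumour 1 Steap2 passed the adjusted threshold, and the share of all genes called in that fit is not given here.

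Among 12 genes of iron export and haem handling, Hp, the haptoglobin that captures free haemoglobin, was the only related gene called in any comparison. Its normalised counts were 364, 395 and 408 in miR-142-5p tumours and 753, 864 and 723 in miR-183-5p tumours, with 632, 554 and 610.2 in ctrl and 436, 471 and 817 in miR-222-3p tumours. The miR-142-5p tumours were the 3 lowest of the 12, and the miR-183-5p tumours all lay above ctrl. Hp was higher in miR-183-5p than in miR-142-5p tumours (log2 fold change 1.003, SE 0.22, DESeq2 adjusted p = 0.0119). With edgeR the adjusted p-value was 0.548, and without miR-183-5p tumour 3 it was 0.103 in DESeq2. Against ctrl, Hp had -0.62 in miR-142-5p tumours (SE 0.22) and 0.38 in miR-183-5p tumours (SE 0.22), neither passing. Hp was the 1 of 90 related genes called between these groups, where 0.0519% of all genes were called, and 13 of 90 had an unadjusted p-value under 0.05, against 7.95% of all genes. None was called by DESeq2 between miR-222-3p tumours and those given miR-183-5p (1 of 90 unadjusted, 3.24% of all genes) or miR-142-5p (5 of 90, 3.59% of all genes). None was called in the DESeq2 test over 4 groups either (8 of 90 unadjusted, 4.74% of all genes), and edgeR called none in any comparison.

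Neutrophils carry Hp, Lcn2 and Ltf in their granules. The sum of the neutrophil markers was 1884 to 3048 TPM in miR-183-5p and 1022 to 1663 TPM in miR-142-5p tumours, which did not overlap, and all 7 markers had a higher estimate in miR-183-5p tumours (0 called by DESeq2, 4 at an unadjusted p-value under 0.05). Lcn2, which binds iron-carrying siderophores, had a log2 fold change of 1.17 (SE 0.50) in the same comparison, and Ltf, the lactoferrin, had 0.06 (SE 0.39). Against ctrl, Lcn2 had -0.41, 0.75 and 0.43 in the 3 miRNA groups (each SE 0.50). Ltf had -0.46, -0.40 and -0.93 (each SE 0.39), the last at an unadjusted DESeq2 p-value under 0.05. The part of neutrophils in these values was not tested. Erythroid markers, mostly globin messages, summed to 361 to 451 TPM in ctrl and 150.6 to 272 TPM in miR-222-3p tumours. All 5 tested erythroid markers had an unadjusted p-value under 0.05 for lower values there, with 0 called by DESeq2, and Slc4a1 was under 1 TPM in every tumour. Hmox1 stood at 0.35 and Fth1 at 0.18 against ctrl in the same tumours.

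**Figure D5:**
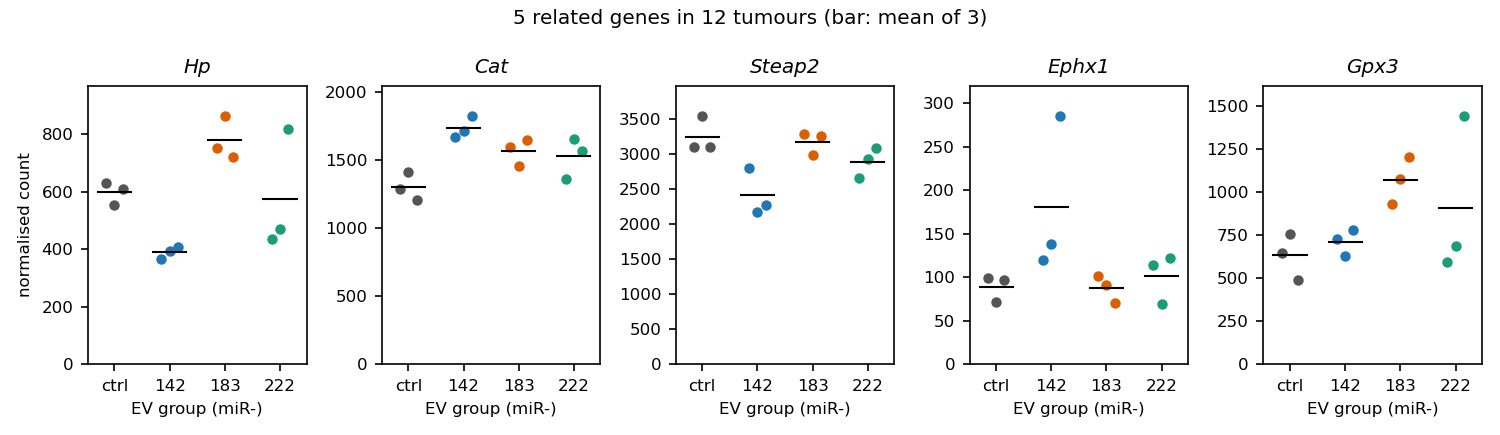
Normalised counts (vertical axis, from 0, a separate scale for each gene) of Hp, Cat, Steap2, Ephx1 and Gpx3 in the 4 EV groups. Each point is 1 tumour and each bar the mean of 3. Hp is lowest in the 3 miR-142-5p tumours (364 to 408) and lies between 723 and 864 in miR-183-5p tumours.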

How the data were processed

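Polyadenylated RNA of 12 tumours was made into stranded libraries, 1 per tumour. The authors quantified reads with Salmon. The deposited values were, per transcript, an estimated count of reads (an expected count, which need not be whole) and TPM, which the authors took from Salmon and which has the same sum in every library, beside the transcript lengths. The Ensembl release given in the methods is not the one in the names of the deposited tables. Identifiers were matched to GENCODE M21 on GRCm38 (116710 of 118783 transcripts, 98.3%). Unmatched transcripts held up to 0.671% of reads and were not used here.

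Per gene, the estimated counts were added up and then rounded, with the mean transcript length as an offset. Tests covered genes that had 10 reads or more in 3 libraries or more (15459, of which 15413 received an adjusted p-value). DESeq2 1.42.0 in R 4.3.3 fitted the 12 libraries together with group as the only factor (Wald tests, likelihood ratio test over 4 groups, Benjamini-Hochberg over all genes, threshold 0.05). Intervals of 95% assume a normal estimate with the given SE. Unless stated, log2 fold changes are of normalised counts and are unshrunken. Scripts were tested on simulated data. The labels give no batch, and p-values measure the spread between these tumours. Depth was 20285968 to 27021401 reads, and counting error for the 10 genes rests on at least 104 reads per library. No 2 libraries of a group agreed within sampling noise (lowest chi-square per degree of freedom 13.14).

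The genes and the lists of related genes and cell type markers were chosen with earlier results of these data known. The 10 genes are always named. Of the lists, genes were selected if called in any contrast, or as the 2 largest fold changes per list and contrast with ctrl at a mean normalised count of at least 100. Among those selected, Mafk, Gstm1, Gstm2, G6pdx, Tkt, Sod3, Slc11a1 and Cd163 had no unadjusted DESeq2 p-value under 0.05 against ctrl. The fold changes of these genes are not reported here. For Hmox1, Slc7a11 and Slc40a1, the 3 most similar genes are named. The same result for Nqo1 is not reported here. Adipocyte and endothelial cell markers, also listed, summed to 0.984 to 4.84 TPM and 90.4 to 145 TPM. The alternatives were edgeR 4.0.16 (quasi-likelihood), TMM factors in DESeq2, no count filter, at least 50 reads in every library, the replicate number as a block, a fit of the 2 groups alone, no length offset, protein-coding genes only, near-identical copies (95% identity over 300 bases, BLAST 2.17.0) summed, a threshold of 0.1, and each tumour left out. For correlations they were log2(TPM + 1), group means subtracted, each tumour left out and, chosen after seeing the data, only 8 libraries. Python 3.11.15, numpy 2.4.6, scipy 1.17.1 and matplotlib 3.10.9 were used.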

Additional observations from a re-analysis of the deposited data

Results flagged for a closer look

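The log2 fold change of Hp between miR-183-5p and miR-142-5p tumours was 1.003 (SE 0.22, DESeq2 adjusted p = 0.0119). It is listed because a direct test between 2 treated groups passed, and these groups stand on opposite sides of the shared ctrl tumours, from which neither differed at the adjusted threshold. All 3 miR-183-5p tumours (723 to 864 normalised counts) lay above all 3 miR-142-5p tumours (364 to 408). The summed neutrophil markers were also higher in the former (1884 to 3048 TPM against 1022 to 1663 TPM), and their part in the Hp value was not tested.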

How the results depend on the processing

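None of the 10 genes was called in any contrast or over the 4 groups under any alternative, with 1 exception. This was Hmox1 between miR-183-5p and miR-142-5p tumours without miR-142-5p tumour 1 (counts of 0 to 1 when 1 tumour was left out). The share of all genes called in that fit is not given here, so this call cannot be read as particular to Hmox1. Of 450 recomputed log2 fold changes against ctrl, 419 kept their sign and none passed the threshold. The sign turned in 31, of which 30 left out a tumour, and the other was Gclm for miR-222-3p (0.0406 with no length offset). The cause was not tested. With 1 tumour left out, the fold changes against ctrl that turned ran as follows. For miR-142-5p they ran from -0.39 to 0.13 for Hmox1, -0.37 to 0.30 for Slc7a11, -0.15 to 0.21 for Fth1, -0.0358 to 0.23 for Ftl1 and -0.29 to 0.63 for Slc40a1. For miR-183-5p they ran from -0.0959 to 0.0774 for Nqo1, -0.15 to 0.21 for Gclm, -0.0808 to 0.0248 for Txnrd1, -0.54 to 0.12 for Slc7a11 and -0.90 to 0.20 for Slc40a1. For miR-222-3p they ran from -0.0433 to 0.17 for Nqo1, -0.065 to 0.12 for Gclc, -0.15 to 0.079 for Gclm, -0.13 to 0.0346 for Srxn1, -0.0888 to 0.0181 for Txnrd1, -0.20 to 0.19 for Ftl1 and -0.68 to 0.31 for Slc40a1.

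Related genes called between miR-183-5p and miR-142-5p tumours numbered 1 as reported, 0 with edgeR, 3 in a fit of these 2 groups (Gpx3, Hp and Lcn2), 2 at a threshold of 0.1 (Hp and Ncf1) and 0 to 6 with 1 tumour left out (6 without miR-142-5p tumour 1, 0 without miR-142-5p tumour 3, miR-183-5p tumour 2 or miR-183-5p tumour 3). Counts of 0 became 1 for miR-183-5p against ctrl in a fit of these 2 groups (Gpx3) and over the 4 groups at a threshold of 0.1 (Hp). With 1 tumour left out they ran from 0 to 1 for miR-142-5p against ctrl (Steap2, without miR-142-5p tumour 1), 0 to 1 between miR-183-5p and miR-222-3p tumours (Hp, without miR-222-3p tumour 3) and 0 to 3 over the 4 groups (3 without miR-142-5p tumour 1, 2 without miR-222-3p tumour 3 and 1 without miR-222-3p tumour 1). The share of all genes called in each of these alternative fits is not given here. These counts therefore cannot be read as a result about the related genes.

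Gene pairs that passed numbered 0 as reported, 2 with group means subtracted (Fth1 with Ftl1 and Nqo1 with Txnrd1), 0 to 1 with 1 tumour left out (Hmox1 with Txnrd1, without ctrl tumour 2) and 1 within the 8 libraries with the higher Gm28661 share, an alternative chosen after seeing the data (Slc7a11 with Slc40a1).

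The replicate numbers of the labels did not pair the tumours. Deviations from group means correlated by -0.07 on average between tumours with the same number (18 pairs) and by 0.03 between others (36 pairs). With the replicate block, 0 of the 10 genes were called in any contrast and 1 related gene (Hp), as without it.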
